A study of Mus musculus with 21 samples.

Results

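The nuclear-encoded subunits of the respiratory chain and ATP synthase formed a set of 84 genes among the 49510 genes of the count table. They were chosen by symbol alone: the Nduf genes of the a, b, c, s and v series for complex I, Sdha to Sdhd for complex II, the Uqcr genes for complex III, Cox4 to Cox8 for complex IV and the Atp5 genes for complex V. The pattern matched 90 symbols, of which 6 were pseudogenes and were left out. Complex I held 37 genes, complex II 4, complex III 8, complex IV 18 and complex V 17. A few members are placed by name rather than by function: Ndufa4 is now known as a complex IV subunit, Cox7a2l acts in joining complexes into supercomplexes, and Atp5sl is known as a complex I assembly factor.

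RNA was sequenced from sorted CD4 T cells of Foxp3-GFP mice aged 8 weeks, 7 days after a myocardial infarction. Regulatory T cells (Tregs) came from the heart, the heart-draining mediastinal lymph node (MLN), a lymph node that does not drain the heart (NDLN) and the spleen, and conventional T cells (Tconvs) came from the heart, the NDLN and the spleen, with 3 libraries in each of the 7 groups. All groups shared the reporter allele, the age and the infarction, and no uninfarcted mouse was analysed here. The labels do not say whether the 3 libraries of a group came from separate animals, so the p-values measure the spread between these libraries, which may be technical.

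The respiratory chain sits in the inner mitochondrial membrane. Complex I takes electrons from NADH and complex II takes them from succinate; ubiquinone carries them to complex III, cytochrome c carries them on to complex IV, and complex IV passes them to oxygen. Complexes I, III and IV pump protons, and complex V lets the protons flow back to make ATP. Most subunits are encoded in the nucleus and imported, while a small core is encoded in mitochondrial DNA, so each complex except complex II is built from the products of both genomes. In T cells, oxidative phosphorylation is known to be used more by resting, memory and regulatory cells than by freshly activated effector cells, which rely more on glycolysis.

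Library totals ran between 14515387 and 28323649 counts, with trimmed-mean (TMM) scaling factors of 0.798 to 1.35 and 9469 to 16239 genes detected. In 5 libraries (heart Treg 1, MLN Treg 1 and 2, heart Tconv 1 and 2), the mitochondrial ribosomal RNAs made up 0.0567% to 0.102% of counts, against 0.954% to 12.3% in the other 16. The calls below that rest on these 5 libraries are given with and without them. The 7 T cell markers were detected in every library. The 4 Treg markers summed to 1324 to 2949 counts scaled to the library total (CPM) in Treg libraries and 39.75 to 297.0 in Tconv libraries. Cardiomyocytes are rich in these subunits; their marker genes summed to 9.77 to 43.1 CPM in heart Tregs and 7.89 to 34.8 in heart Tconvs, against 13.4 to 147.9 in lymphoid Tregs and 1.66 to 88.5 in lymphoid Tconvs. In the lymphoid Tregs most of that came from Ttn, and Myh6 and Tnni3 were at 0 or below 1 CPM in every library. Actc1 was at 16.5 and 14.0 TMM-scaled CPM in heart Treg 2 and heart Tconv 3. Mb was at 1.38 and 2.49 in the same libraries and Myl2 at 4.37 in heart Tconv 3. These 3 genes were at 0 in every lymphoid library. Pln and Ryr2 ran the other way, with their highest values in lymphoid libraries (NDLN Tconv 1 and MLN Treg 3). B cell markers summed to 0.0746 to 23.4 CPM in heart Tregs, 43.4 to 99.3 in MLN Tregs, 246.2 to 284.2 in NDLN Tregs and 241.3 to 494.8 in spleen Tregs. Fibroblast markers summed to 102.2 to 401.3 CPM in heart Tregs and 1.44 to 182.1 in heart Tconvs, against at most 5.18 elsewhere. The part of these cells in the results below was not tested.

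Promoter sequences are shown for 4 members whose levels recur below, 3 that were lower in heart Tconvs than in NDLN Tconvs and Atp5b, the one member called higher there. Each stretch is the 150 bases before the RefSeq start on GRCm38.p6, read 5′ to 3′ on the gene's strand, with a motif in capitals where one was found. The capitals mark an NRF1 match in Ndufa11 (chr17:56717612-56717761, plus strand, first base at position -60 from the start), an ETS match on the reverse strand in Uqcrh (chr4:116075071-116075220, minus strand, position -11) and a YY1 match in Atp5j (chr16:84834977-84835126, minus strand, position -88). Atp5j has a second RefSeq start, upstream at the end of the annotated gene, whose window held none of the motifs; the stretch shown belongs to the start inside the gene. Atp5b (chr10:128083157-128083306, plus strand) held none of the motifs searched in this stretch. These 4 stretches do not show whether motifs go with direction, which was not tested. Ndufa4, Ndufb5, Ndufv2 and Cox7b, also called lower in heart Tconvs, held none of the motifs in their wider windows, described next. Ndufa6 and Ndufs4, called lower as well, held an NRF1 and a YY1 match.
Ndufa11: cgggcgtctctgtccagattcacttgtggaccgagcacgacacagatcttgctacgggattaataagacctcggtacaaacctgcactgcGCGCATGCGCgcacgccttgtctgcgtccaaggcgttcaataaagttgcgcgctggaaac
Uqcrh: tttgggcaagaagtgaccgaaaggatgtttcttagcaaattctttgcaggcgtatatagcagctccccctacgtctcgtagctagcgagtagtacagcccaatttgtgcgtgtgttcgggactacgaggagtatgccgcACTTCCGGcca
Atp5j: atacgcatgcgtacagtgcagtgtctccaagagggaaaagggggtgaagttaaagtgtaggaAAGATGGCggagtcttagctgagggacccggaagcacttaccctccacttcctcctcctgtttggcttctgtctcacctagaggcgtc
Atp5b: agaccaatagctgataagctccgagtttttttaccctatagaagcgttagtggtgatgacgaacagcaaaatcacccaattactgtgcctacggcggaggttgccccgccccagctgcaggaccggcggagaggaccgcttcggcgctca

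RefSeq promoter windows (250 bases before to 50 after each start) were found for 69 of the 84 genes, 75 windows in all, and were searched on both strands for 5 fixed motifs. The letters of NRF1 (GCGCA, any 1 base, then GCGC), a factor known to drive nuclear genes of mitochondria, were in 18 of the 75 windows (24.0%), against 4.6% of all 32851 RefSeq windows. The YY1 letters AAGATGGC were in 12 windows (16%, against 2.75%) and the ETS letters CCGGAAGT, bound by GABP, in 5 (6.67%, against 3.89%). The CRE letters TGACGTCA were in 4 windows (5.33%, against 1.79%) and the estrogen-related receptor letters TCAAGGTCA in 2 (2.67%, against 0.423%). A window with none of the 5 motifs was found for 37 genes and a window with a match for 34, some genes having both. The median GC content was 57.3% in the members' windows and 52.7% in all windows, and a match to letters is not evidence of a bound site.

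Of the 84 genes, 80 passed the filter on low counts. The other 4 (Ndufa4l2, Cox7b2, Cox8b and Cox8c) had 0 counts in every library. On a per-length scale, over the 21 libraries, the highest mean levels were those of Uqcrh (1714 CPM per kb of transcript), the hinge protein of complex III, and of the complex IV subunits Cox4i1 (1636), Cox6a1 (1525), Cox8a (1520) and Cox6b1 (1418). In TMM-scaled CPM without length, the leading members were Ndufa4 (649.4), Ndufa2 (619.3) and Ndufa13 (608.6) among complex I names, Sdhb (516.3) and Sdhd (273.9) in complex II, and Uqcrh (937.5), Uqcrb (523.6) and Uqcr10 (448.9) in complex III. Cox4i1 (1251), Cox6b1 (876.6) and Cox6a1 (870.7) led complex IV, and Atp5c1 (962.4), Atp5j (820.8) and Atp5f1 (737.1) led complex V.

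Summed over the set, the subunits took a smaller share of the counts in both heart populations than in the NDLN and the spleen. The 84 genes made up 2.38%, 2.37% and 2.52% of the counts in the 3 heart Treg libraries, 2.25%, 3.79% and 3.06% in MLN Tregs, 3.20%, 3.82% and 3.99% in NDLN Tregs and 3.19%, 3.01% and 3.59% in spleen Tregs. In Tconvs they made up 1.79%, 2.23% and 2.28% in the heart, 2.11%, 3.08% and 2.78% in the NDLN and 3.03%, 3.09% and 3.20% in the spleen. Heart Tregs lay below all NDLN and spleen Treg libraries, while heart Tconvs overlapped NDLN Tconvs through NDLN Tconv 1. The group means were 2.42 ± 0.0864% in heart Tregs, 3.03 ± 0.769% in MLN Tregs, 3.67 ± 0.415% in NDLN Tregs and 3.26 ± 0.293% in spleen Tregs, and 2.10 ± 0.271% in heart Tconvs, 2.66 ± 0.494% in NDLN Tconvs and 3.11 ± 0.0853% in spleen Tconvs (SD, n = 3 each). In bulk libraries, fewer cells of a type and less RNA per cell cannot be told apart.

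**Figure D1:**
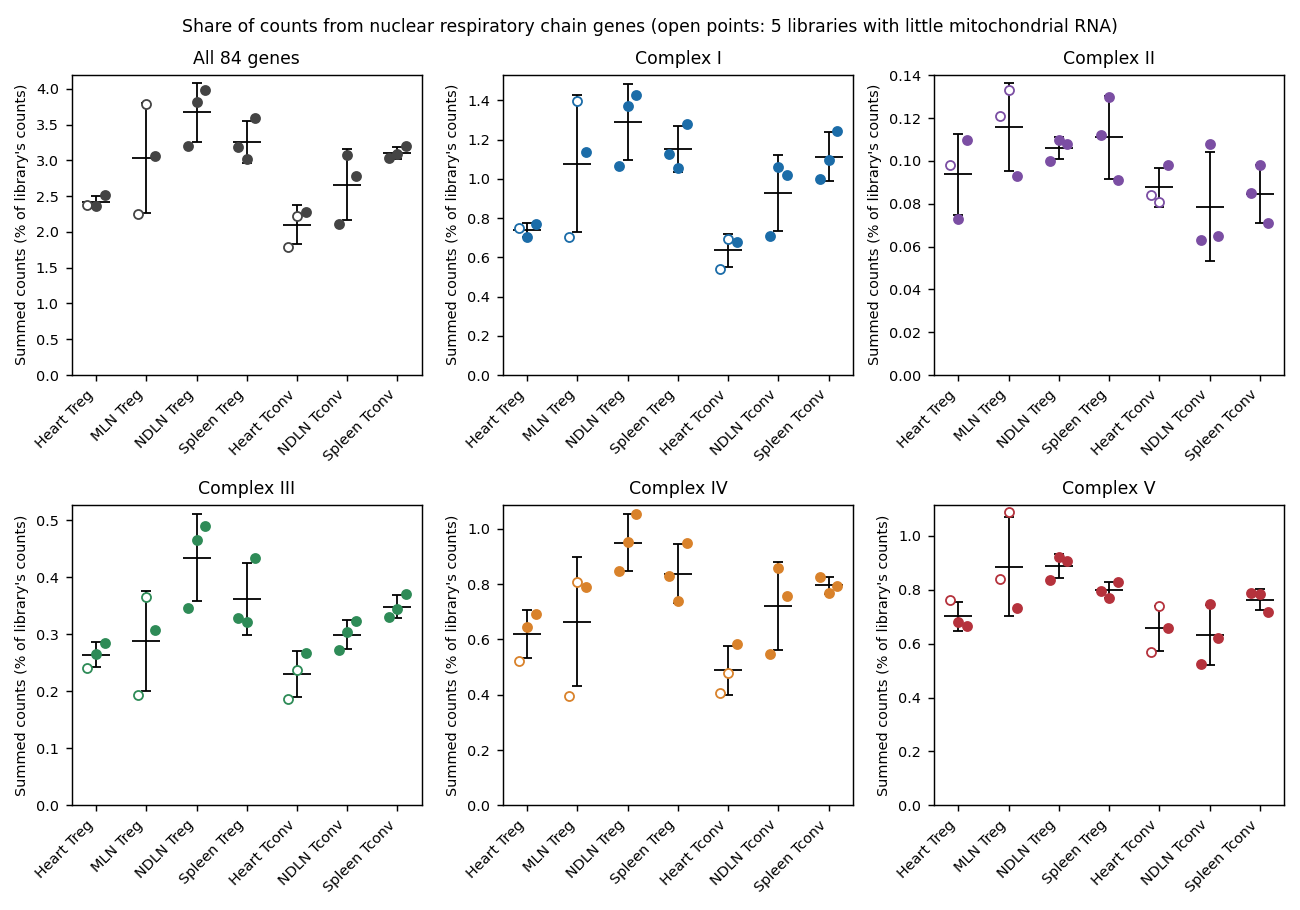
Summed counts of the subunit genes as a percentage of the library's counts, in one panel for all 84 genes and one for each complex, by group; points are libraries (open points the 5 with little mitochondrial RNA), bars are means ± SD. For all 84 genes, heart Tregs average 2.42% and heart Tconvs 2.10%, against 2.66% to 3.67% in the lymphoid groups.

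The complexes did not share this pattern equally. Complex I took 0.740% of counts in heart Tregs, against 1.08% to 1.29% in lymphoid Tregs, and 0.636% in heart Tconvs, against 0.929% to 1.11% in lymphoid Tconvs. Complex IV took 0.621% in heart Tregs, against 0.665% to 0.951%, and 0.488% in heart Tconvs, against 0.721% to 0.795%. Complex II, the entry point for succinate and the one complex with no mitochondrially encoded subunit, took 0.0937% in heart Tregs, against 0.106% to 0.116%, and 0.0877% in heart Tconvs, against 0.0787% to 0.0847%. Complex V took 29.06% of the members' own counts in heart Tregs and 31.35% in heart Tconvs, against 29.97% in MLN Tregs and 23.78% to 24.63% in the other lymphoid groups. The groups with the larger complex V portion are the 3 that hold the libraries with little mitochondrial RNA. Outside those libraries, the portion was 28.7% in heart Treg 2, 26.36% in heart Treg 3 and 28.87% in heart Tconv 3. It was 23.9% in MLN Treg 3 and at most 26.19% (NDLN Treg 1) in the remaining lymphoid libraries.

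Gene by gene, most members were lower in heart than in NDLN Tregs, and few of these differences passed the adjusted threshold. Of the 283 other protein-coding genes under 1 kb and at 100 CPM or more, 84.8% were lower too. In heart Tregs against NDLN Tregs, 67 of the 80 tested members had a log2 fold change below 0 and 12 above (1 was at 0), with a median of -0.84, beside a median of 0.00 over all 14996 genes tested. By complex the medians were -0.99 for complex I (32 of 36 lower), -0.35 for complex II, -0.99 for complex III, -0.58 for complex IV and -0.66 for complex V. In 47 members all 3 heart Treg libraries lay below all 3 NDLN Treg libraries, which was so for 11.1% of all genes tested. At an unadjusted p under 0.05, 41 members were lower, against 8.82% of all genes. After Benjamini-Hochberg adjustment of edgeR's quasi-likelihood test over all genes, 2 members fell, where 0.533% of all genes were called in either direction and 0.213% lower.

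These were Uqcrb and Ndufs4. Uqcrb (chr13:66900617-66905378, minus strand) encodes a ubiquinone-binding subunit of complex III and had 239.0, 376.4 and 272.1 TMM-scaled CPM in heart Tregs, against 581.6, 1169 and 1045 in NDLN Tregs. The groups did not overlap, and the log2 fold change was -1.66 (SE 0.37, edgeR adjusted p = 0.04615). Ndufs4 (chr13:114287795-114388258, minus strand), an accessory subunit needed for a stable and active complex I, had 159.7, 149.4 and 183.0 in heart Tregs, against 335.8, 595.8 and 465.6 in NDLN Tregs. Every heart library was again lower (log2 fold change -1.51, SE 0.33, edgeR adjusted p = 0.04277).

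Without the 5 libraries with little mitochondrial RNA, heart Tregs kept replicates 2 and 3. Uqcrb then had a log2 fold change of -1.49 (edgeR adjusted p = 0.132) and Ndufs4 of -1.46 (edgeR adjusted p = 0.0638), and no member was called, against 0.184% of the 18998 genes tested in that fit. At an unadjusted p under 0.05, 36 members were lower in it, against 4.99% of genes, and the median over members was -0.61, beside 0.00 over all genes. In 48 members heart Treg libraries 2 and 3 lay below all 3 NDLN Treg libraries, against 15.9% of all genes. The members' median thus kept its direction without heart Treg 1, whereas both calls were lost.

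**Figure D2:**
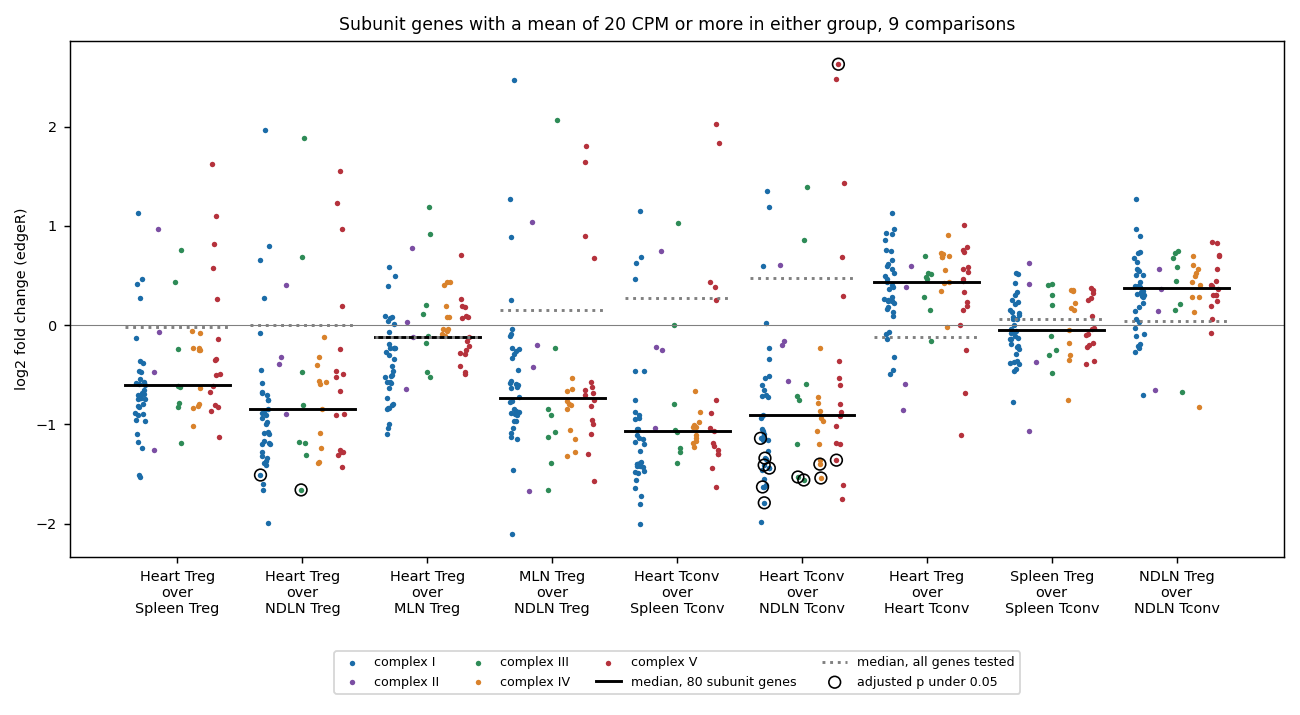
Log2 fold changes of the subunit genes that average at least 20 TMM-scaled CPM in either group, for each of the 9 comparisons; circles mark edgeR adjusted p under 0.05, the black line is the median over the 80 tested members and the grey dotted line the median over all 14996 genes tested. The members' median lies lowest in heart Tconvs over spleen Tconvs (-1.07) and highest in heart Tregs over heart Tconvs (0.44).

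Against spleen Tregs, most members were again lower in heart Tregs. The median over members was -0.60 (65 lower, 15 higher), beside -0.02 over all genes, with complex medians of -0.71 for I, -0.27 for II, -0.61 for III, -0.25 for IV and -0.35 for V. No member passed edgeR's adjusted threshold, which 0.147% of genes did. At an unadjusted p under 0.05, 22 members were lower (7.38% of all genes) and 2 higher (4.28%), and in 29 members the heart libraries lay below all spleen libraries (8.83%). DESeq2 called 4 members (8.66% of genes) and limma-voom 0 (1.89%). In the 16 libraries the median over members was -0.43 (57 lower, 23 higher), with -0.51 for complex I and -0.25 for II, -0.19 for III, 0.02 for IV (7 of 15 lower) and -0.22 for V. This comparison and the others with heart Tregs share the heart Treg libraries, so they do not count as independent.

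Among the members furthest apart in that comparison, Ndufc1, an accessory subunit of complex I, had 55.4, 51.1 and 90.6 TMM-scaled CPM in heart Tregs, against 155.6, 143.3 and 268.8 in spleen Tregs (log2 fold change -1.53, SE 0.44, edgeR adjusted p = 0.241). Ndufa12, another accessory subunit, had 69.9, 67.0 and 83.4 in heart Tregs, against 247.1, 173.8 and 206.2 in spleen Tregs and 215.8, 305.7 and 353.8 in NDLN Tregs. Its heart libraries were tightly grouped and below every spleen and NDLN Treg library, yet the log2 fold changes of -1.51 (SE 0.52) and -1.99 (SE 0.53) had edgeR adjusted p-values of 0.393 and 0.0941. At the other end stood Atp5b, the catalytic beta subunit of ATP synthase, with a log2 fold change of 1.62 over spleen Tregs (SE 0.61, edgeR adjusted p = 0.413). Over NDLN Tregs the highest members were Ndufv1, the NADH-binding core subunit of complex I (93.9, 97.7 and 60.9 in heart Tregs, against 20.3, 26.2 and 17.9 in NDLN Tregs; log2 fold change 1.97, SE 0.60, edgeR adjusted p = 0.157), and Uqcrc2, a core protein of complex III (182.6, 220.7 and 81.9, against 23.3, 58.7 and 48.9; 1.89, SE 0.69, edgeR adjusted p = 0.261).

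The MLN drains the infarcted heart, and 2 of its 3 Treg libraries belong to the 5 with little mitochondrial RNA. Over members, heart Tregs differed from MLN Tregs by a median log2 fold change of -0.12 (48 lower, 31 higher), the same as the -0.12 over all genes, with -0.38 for complex I. Without TMM factors the members' median was -0.34 for heart over MLN Tregs, beside -0.33 over all genes. For MLN over NDLN Tregs it was -0.36, beside 0.56 over all genes. edgeR called no member in heart over MLN Tregs (0.0667% of genes). At an unadjusted p under 0.05, 7 members were lower (6.44% of genes) and 1 higher (3.14%); DESeq2 called 0 (7.13%) and limma-voom 0 (1.41%). The members furthest apart were Ndufa12 (log2 fold change -1.10, SE 0.52, edgeR adjusted p = 0.496) and Ndufc1 (-1.04, SE 0.43, the same adjusted p), and on the other side Uqcrc1, a core protein of complex III (1.19, SE 0.93, edgeR adjusted p = 0.771), and Uqcrfs1, its Rieske iron-sulfur protein (0.92, SE 0.30, edgeR adjusted p = 0.449). Uqcrc1 had 30.3, 106.2 and 361.9 TMM-scaled CPM in heart Tregs, against 19.8, 31.1 and 168.1 in MLN Tregs, and the low values are the libraries with little mitochondrial RNA.

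MLN Tregs against NDLN Tregs had a median of -0.73 over members (67 lower, 11 higher), beside 0.15 over all genes, and complex medians of -0.63 for I, -0.31 for II, -0.99 for III, -0.80 for IV and -0.68 for V. edgeR called 0 members (0.00667% of genes); 32 were lower and 5 higher at an unadjusted p under 0.05 (4.05% and 5.61% of genes), DESeq2 called 4 (5.91%) and limma-voom 0 (0.273%). Ndufb2, an accessory subunit of complex I, had 3.28, 3.39 and 15.1 in MLN Tregs, against 24.4, 39.2 and 29.3 in NDLN Tregs (log2 fold change -2.10, SE 1.03, edgeR adjusted p = 0.502). Sdhc, which anchors complex II in the membrane, had 1.44, 2.94 and 109.0 in MLN Tregs, against 160.0, 42.8 and 157.8 in NDLN Tregs (-1.67, SE 1.54, edgeR adjusted p = 0.820). Ndufv1 (2.47, SE 0.62, edgeR adjusted p = 0.363) and Uqcrc2 (2.07, SE 0.69, edgeR adjusted p = 0.473) stood highest. In the 16 libraries MLN Tregs keep only replicate 3; the median over members there was -0.43, and for heart over MLN Tregs -0.07.

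The largest number of calls came from heart Tconvs against NDLN Tconvs, where 11 members fell and 1 rose (edgeR adjusted p under 0.05; 2.88% of all genes, 1.34% lower and 1.54% higher). The median over members was -0.91 (65 lower, 15 higher), beside 0.48 over all genes, with complex medians of -1.08 for I, -0.18 for II, -0.73 for III, -0.94 for IV and -0.79 for V. The members that fell were 6 of complex I, 2 of complex III, 2 of complex IV and 1 of complex V, and the one that rose belongs to complex V. At an unadjusted p under 0.05, 42 members were lower (6.03% of genes), and in 36 the heart libraries lay below all NDLN libraries (8.06%). With library totals alone and no TMM factors, a scaling chosen after seeing the data, the median over members was -0.47 and over all genes 0.95. The calls in that fit were 1 lower (Ndufa6) and 2 higher (Atp5b and Uqcrfs1), so the number of calls in each direction depended on the scaling.

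Ndufa6 (chr15:82350140-82354322, minus strand), an accessory subunit of the complex I matrix arm, had 159.7, 228.3 and 220.7 TMM-scaled CPM in heart Tconvs, against 446.2, 867.7 and 793.3 in NDLN Tconvs (log2 fold change -1.79, SE 0.38, edgeR adjusted p = 0.0158). Ndufb5, of the complex I membrane arm, had 113.1, 109.6 and 135.5, against 258.9, 350.5 and 502.5 (-1.63, SE 0.37, edgeR adjusted p = 0.0213). Both groups were apart in every library for both genes. Uqcrh had 306.9, 344.3 and 683.3 in heart Tconvs, against 1238, 1093 and 1614 in NDLN Tconvs (-1.56, SE 0.42, edgeR adjusted p = 0.04999), and Uqcrb 182.6, 216.2 and 244.1, against 485.9, 658.0 and 710.3 (-1.53, SE 0.37, edgeR adjusted p = 0.0272). For Uqcrh, heart Tconv 3, the heart Tconv library outside the 5, stood well above the other heart Tconvs, and the log2 fold change was -0.96 in the 16 libraries.

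Cox6c (chr15:35925886-35938246, minus strand), a small complex IV subunit, had 314.1, 421.6 and 377.0 in heart Tconvs, against 807.1, 1097 and 1029 in NDLN Tconvs (log2 fold change -1.40, SE 0.34, edgeR adjusted p = 0.0302). Cox7b, another small complex IV subunit, had 225.6, 304.4 and 259.4, against 573.9, 824.9 and 894.9 (-1.54, SE 0.35, edgeR adjusted p = 0.0215). Their heart Tconv libraries lay close together, with heart Tconv 3 between the others. Atp5j, coupling factor 6 of the ATP synthase stalk, had 296.2, 325.8 and 404.1 in heart Tconvs, against 677.7, 960.7 and 987.8 in NDLN Tconvs (-1.36, SE 0.33, edgeR adjusted p = 0.0285). Its locus (chr16:84827866-84835625, minus strand) overlaps Gabpa (chr16:84834925-84863779, plus strand), and since the strand setting of the counting is not given in the sources used here, reads over the overlap cannot be assigned to one of them.

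The remaining called members followed the same order. Ndufs4 had 114.4, 130 and 167.7 TMM-scaled CPM in heart Tconvs, against 320.5, 332.2 and 462.4 in NDLN Tconvs (log2 fold change -1.44, SE 0.33, edgeR adjusted p = 0.0219). Ndufa4 had 186.7, 321.0 and 267.9, against 513.9, 636.9 and 910.5 (-1.41, SE 0.36, edgeR adjusted p = 0.0375). Both were lower in every heart library. Ndufa11 (chr17:56717767-56722141, plus strand), a membrane-arm subunit that holds complex I together, had 128.0, 193.7 and 185.2, against 377.7, 514.3 and 394.7 (-1.34, SE 0.33, edgeR adjusted p = 0.0313), and Ndufv2, a core subunit that carries an iron-sulfur cluster, 151.0, 185.8 and 244.6, against 342.5, 466.0 and 472.3 (-1.14, SE 0.30, edgeR adjusted p = 0.0436). Uncalled members with large differences were Ndufs3, described below (log2 fold change -1.98, SE 2.59, edgeR adjusted p = 0.737), and Atp5a1, the alpha subunit of ATP synthase, with 412.2, 876.8 and 417.3 in heart Tconvs, against 105.5, 163.9 and 37.1 in NDLN Tconvs (2.48, SE 0.72, edgeR adjusted p = 0.0693).

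Atp5b was the member that rose. It had 648.6, 1402 and 774.7 TMM-scaled CPM in heart Tconvs, against 105.3, 156.8 and 192.8 in NDLN Tconvs, 6.21-fold higher (log2 fold change 2.63, SE 0.63, edgeR adjusted p = 0.0264). All 3 heart libraries were higher, heart Tconv 3 included. In the 16 libraries the log2 fold change was 2.34 (edgeR adjusted p = 0.182). In Tregs it had 1368, 337.7 and 670.3 in the heart, 1469, 1105 and 258.3 in the MLN, 495.1, 137.2 and 177.0 in the NDLN and 388.9, 258.6 and 124.8 in the spleen, so its highest Treg values were in libraries with little mitochondrial RNA, and heart Tregs overlapped both NDLN and spleen Tregs.

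No member was called in heart Tconvs over NDLN Tconvs from the 16 libraries, in which heart Tconvs keep replicate 3 alone, whose spread is taken from the other groups (0.179% of genes called). That library had 0.954% of counts in mitochondrial ribosomal RNA, the lowest share of the 16. There 23 members were lower at an unadjusted p under 0.05, against 2.43% of genes, and the median was -0.60, beside 0.00 over all genes. The log2 fold changes of the called members then were -1.68 for Ndufa6, -1.57 for Cox7b, -1.47 for Ndufb5, -1.39 for Cox6c, -1.37 for Ndufa4, -1.35 for Uqcrb, -1.23 for Ndufa11, -1.16 for Ndufs4, -1.13 for Atp5j and -0.82 for Ndufv2. Adding the 5-library set as a term to the fit of all 21 libraries also left 0 members called.

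**Figure D3:**
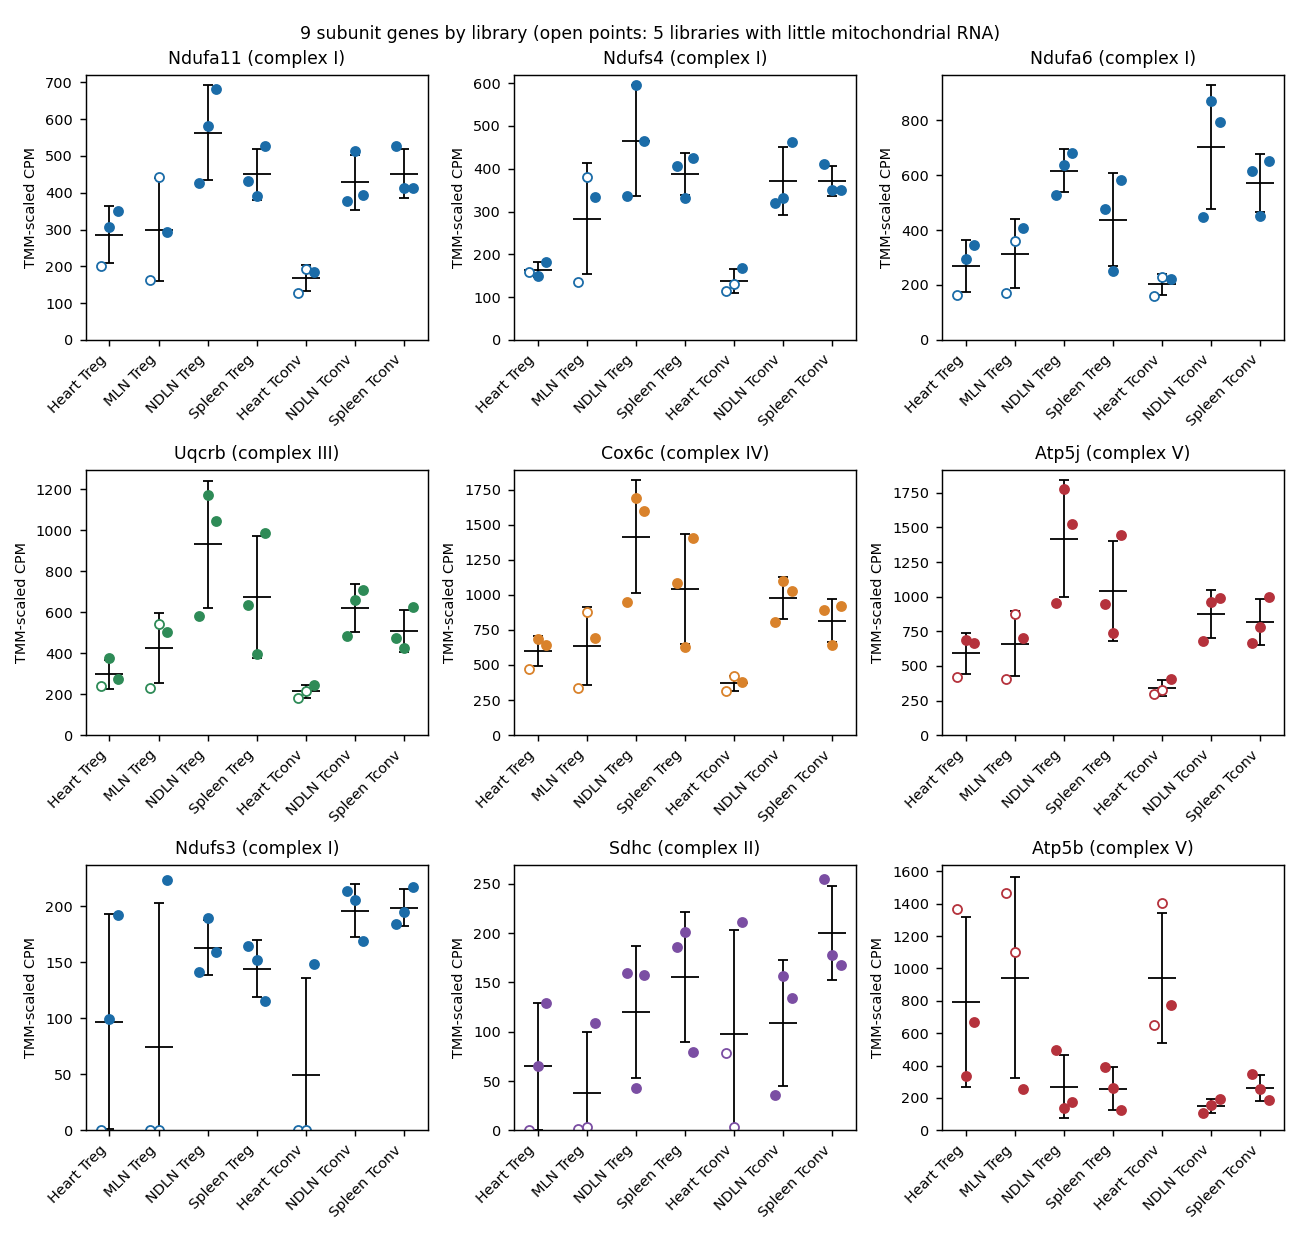
TMM-scaled CPM of 9 members (Ndufa11, Ndufs4, Ndufa6, Uqcrb, Cox6c, Atp5j, Ndufs3, Sdhc and Atp5b) by group; points are libraries (open points the 5 with little mitochondrial RNA), bars are means ± SD of 3 libraries. Heart Tconvs have low Cox6c values (314.1 to 421.6) and high Atp5b values (648.6 to 1402), and Ndufs3 is at 0 in all 5 open points.

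Against spleen Tconvs, heart Tconvs had the lowest median of the 9 comparisons, -1.07 over members (65 lower, 15 higher), beside 0.27 over all genes. By complex it was -1.23 for I, -0.24 for II, -1.07 for III, -1.03 for IV and -1.04 for V. In 56 members the heart libraries lay below all spleen libraries (9.97% of genes), and 52 were lower and 2 higher at an unadjusted p under 0.05 (5.43% and 7.12% of genes). edgeR called 0 members (0.473% of genes), limma-voom 1 (1.48%) and DESeq2 36 (10%), so the count of calls rested on the tool. Ndufa12 had 38.3, 77.3 and 79.4 in heart Tconvs, against 239.7, 157.5 and 279.8 in spleen Tconvs (log2 fold change -1.8, SE 0.53, edgeR adjusted p = 0.120). Ndufs3 had -2.0 (SE 2.59, edgeR adjusted p = 0.831), Atp5b 1.84 (SE 0.62, edgeR adjusted p = 0.192) and Atp5a1 2.03 (SE 0.71, edgeR adjusted p = 0.222). In the 16 libraries the median over members was -0.74. The comparisons of heart Tconvs with NDLN and spleen Tconvs share the heart Tconv libraries.

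Tregs and Tconvs were also compared within each site. In the heart, 66 members were higher and 14 lower in Tregs, with a median log2 fold change of 0.44, beside -0.12 over all genes (complex medians 0.37 for I, -0.10 for II, 0.48 for III, 0.69 for IV and 0.45 for V). edgeR called 0 members (0.0667% of genes), limma-voom 0 (1.19%) and DESeq2 1 (5.99%), and 9 were higher and 1 lower at an unadjusted p under 0.05 (2.54% and 5.27% of genes). Ndufb8, an accessory subunit of complex I, had 85.1, 245.3 and 242.1 TMM-scaled CPM in heart Tregs, against 64.5, 60.0 and 137.1 in heart Tconvs (1.13, SE 0.41, edgeR adjusted p = 0.601). Atp5g2, which encodes the c subunit of the ATP synthase rotor, had 102.2, 335.4 and 409.7, against 96.0, 91.6 and 233.9 (1.01, SE 0.48, the same adjusted p). In both genes the libraries with little mitochondrial RNA were the low ones of their group, and 1 of 3 heart Treg libraries belongs to that set, against 2 of 3 heart Tconv libraries. Sdha, the flavoprotein of complex II, was at 42, 59.3 and 75.9 in heart Tregs, against 91.2, 144.3 and 84.7 in heart Tconvs (-0.85, SE 0.55, edgeR adjusted p = 0.698), and Atp5sl at 20.4, 0 and 7.47, against 21.2, 31.8 and 7.34 (-1.11, SE 1.72, edgeR adjusted p = 1.0). The median over members was 0.26 in the 16 libraries.

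In the NDLN, where none of the 6 libraries belongs to the 5 with little mitochondrial RNA, 66 members were higher and 14 lower in Tregs, with a median of 0.37, beside 0.04 over all genes (0.32 for complex I, 0.25 for II, 0.52 for III, 0.44 for IV and 0.39 for V). At an unadjusted p under 0.05, 11 members were higher and 0 lower (8.26% and 3.32% of genes). edgeR called 0 (0.3% of genes), limma-voom 0 (1.61%) and DESeq2 3 (11.0%). Ndufb7, a complex I subunit facing the intermembrane space, had 457.3, 677.8 and 751.9 TMM-scaled CPM in NDLN Tregs, against 242.2, 355.3 and 367.7 in NDLN Tconvs, with no overlap (log2 fold change 0.97, SE 0.31, edgeR adjusted p = 0.319). Ndufa12 had 1.27 (SE 0.52, edgeR adjusted p = 0.425), while Cox7a2l had 721.3, 559.3 and 436.8 in NDLN Tregs, against 705.0, 969.6 and 1362 in NDLN Tconvs (-0.82, SE 0.49, edgeR adjusted p = 0.494), and Ndufv1 -0.70 (SE 0.59, edgeR adjusted p = 0.732).

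In the spleen the 2 cell types were close. The median over members was -0.05 (44 lower and 35 higher), beside 0.06 over all genes. Without TMM factors it was 0.05, beside 0.16 over all genes. No member was called by edgeR (0.06% of genes), by DESeq2 (5.7%) or by limma-voom (0.874%), and 0 passed an unadjusted p under 0.05 in either direction (2.71% of genes lower and 4.61% higher). The members furthest apart were Sdhd, the other membrane anchor of complex II (447.1, 373.9 and 282.1 in spleen Tregs, against 294.9, 245.0 and 172.8 in spleen Tconvs; log2 fold change 0.63, SE 0.32, edgeR adjusted p = 0.620), and Ndufv1 (0.53, SE 0.58, edgeR adjusted p = 1.0). On the other side were Sdha (16, 40.8 and 33.6, against 45.8, 86.4 and 57.9; -1.07, SE 0.56, edgeR adjusted p = 0.620) and Ndufb10, a membrane-arm subunit of complex I (202.8, 251.4 and 320.4, against 425.7, 345.1 and 545.7; -0.77, SE 0.39, the same adjusted p). Erythroid markers summed to 1221 to 23820 CPM in spleen Tregs and 347.9 to 1159 in spleen Tconvs, and 342.0 to 30060 in MLN Tregs; the part of such RNA in the subunit levels was not tested.

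Over the 7 groups at once, a test for any difference called 11 members (3.3% of all genes). These were Ndufs4 and Atp5j (edgeR adjusted p = 0.0167 each), Uqcrb (0.01695), Cox7b (0.01765), Ndufa4 (0.0215), Cox6c (0.0266), Atp5j2 (0.0272), Atp5b (0.03096), Ndufa6 (0.0324), Cox7a2 (0.0407) and Ndufa11 (0.04299), all by edgeR's quasi-likelihood test with Benjamini-Hochberg adjustment. Cox7a2, a small complex IV subunit, had 347.4, 401.8 and 446.5 TMM-scaled CPM in heart Tregs and 206.3, 307.9 and 228.4 in heart Tconvs, against 583.1, 1216 and 1303 in NDLN Tregs and 460.5, 618.7 and 828.2 in NDLN Tconvs. Atp5j2, the f subunit of the ATP synthase, had 297.0, 361.3 and 385.4 in heart Tregs and 210.4, 241.9 and 311.1 in heart Tconvs, against 644.2, 969.3 and 915.9 in NDLN Tregs. In both genes every heart library lay below every NDLN library of its own cell type. In the 16 libraries no member passed (0.721% of genes), with 30 at an unadjusted p under 0.05 (7.64% of genes).

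**Figure D4:**
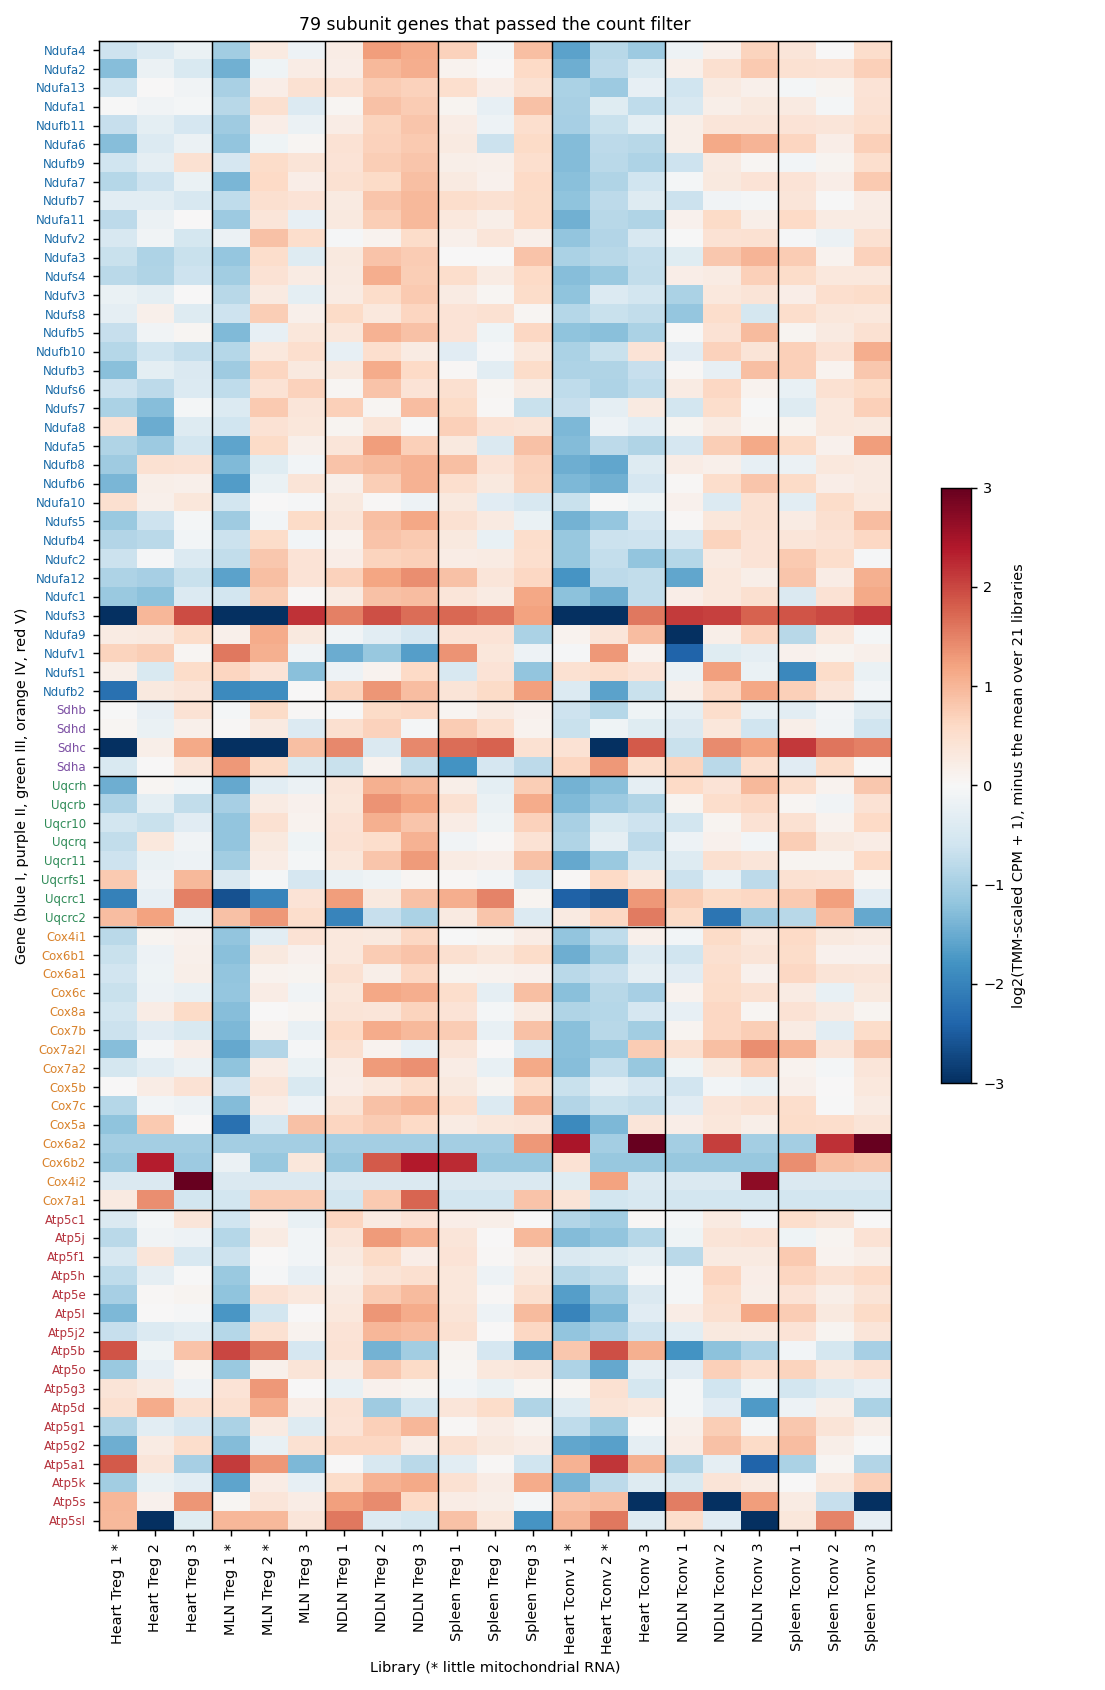
Level of 79 tested subunit genes (down the page, by complex) in the 21 libraries (across, by group), as log2(TMM-scaled CPM + 1) minus the gene's mean over the 21 libraries; asterisks mark the 5 libraries with little mitochondrial RNA. Heart libraries are mostly below the gene's mean, and Atp5b and Atp5a1 run the other way in most of the marked libraries.

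Several subunits of complexes IV and I come as isoforms with known tissue preferences, and the T cells used the widespread ones. Among the complex IV pairs, Cox4i1 averaged 1251 TMM-scaled CPM over the 21 libraries. Its partner Cox4i2, known from lung and hypoxic cells, was at 19.4 in heart Treg 3, 7.77 in NDLN Tconv 3 and 0.0450 and 2.13 in heart Tconv 1 and 2, and at 0 in the others. Cox6a1 averaged 870.7, whereas Cox6a2, the heart and skeletal muscle form, had 10.1, 0 and 16.6 in heart Tconvs and 0 in all heart Tregs, and was also seen in lymphoid cells (3.97 in spleen Treg 3, 7.52 in NDLN Tconv 2, and 0, 8.26 and 35.5 in spleen Tconvs). The other muscle form, Cox7a1, ran between 0 and 3.88, beside means of 570.8 for Cox7a2 and 595.3 for Cox7a2l. Cox6b1 averaged 876.6, and the testis form Cox6b2 reached 10.5 at most, with 0 in all NDLN Tconvs. Cox7b averaged 607.7, Cox8a 835.8 and Ndufa4 649.4, while their partners Cox7b2, Cox8b, Cox8c and Ndufa4l2 had 0 counts throughout. The highest Cox6a2 value of any library was thus in a lymphoid group, spleen Tconv 3.

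The 5 libraries with little mitochondrial RNA differed from the rest in the makeup of the set more than in its sum. The 84 genes took 1.79% to 3.79% of counts there (median 2.25%) and 2.11% to 3.99% in the other 16. The ratio of complex IV to complex V counts was 0.470 to 0.744 (median 0.686) in the 5 and 0.883 to 1.216 (median 1.045) in the 16, with no overlap (heart Tconv 3 held the 0.883), whereas the ratio of complex I to complex V, 0.835 to 1.283 against 1.029 to 1.733, overlapped. The ratio of mitochondrially encoded to nuclear subunit counts was 0.364 to 0.683 in the 5 and 0.843 to 2.321 in the 16, which is close to what chose them and adds no separate evidence.

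**Figure D5:**
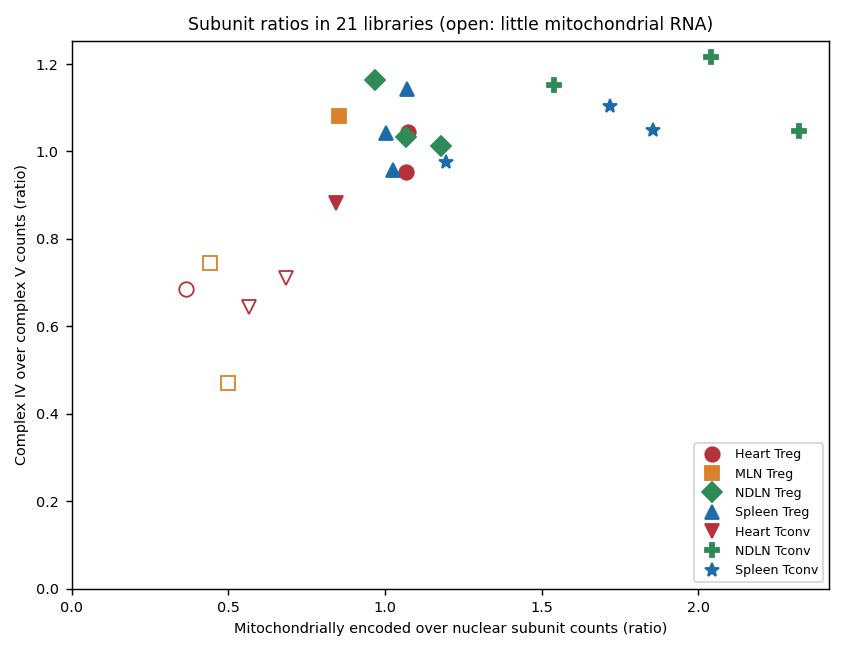
Counts of mitochondrially encoded over nuclear subunits (x axis) and of complex IV over complex V subunits (y axis) in each of the 21 libraries. The 5 libraries with little mitochondrial RNA lie at 0.470 to 0.744 on the y axis, below the 0.883 to 1.216 of the other 16.

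Compared within heart Tregs, MLN Tregs and heart Tconvs, 44 members were lower in the low set in all 3 groups and 9 were higher, against 13.88% and 17.98% of all genes. In 7 members all 5 libraries lay below all 16 (1.88% of all genes) and in 0 members above (1.39%). The 7 were Ndufs3, Uqcrc1, Uqcrh, Cox4i1, Cox5a, Cox7a2l and Atp5l. Cox5a, a nuclear subunit that binds the core of complex IV, was at 45.2 to 154.4 TMM-scaled CPM in the 5 libraries and 218.4 to 401.0 in the 16. Uqcrc1 was at 19.8 to 31.1 in the 5 and 99.96 to 361.9 in the 16, and Cox4i1, a large nuclear subunit of complex IV, at 519.1 to 941.5 and 1118 to 1816. Within heart Tregs, Cox4i1 had 676.0, 1250 and 1287, and within heart Tconvs 519.1, 696.3 and 1316, so in both groups the library or libraries with little mitochondrial RNA were the low ones.

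Ndufs3 (chr2:90894634-90904827, minus strand), a core subunit of the complex I matrix arm, was the extreme case. It had 0 counts in all 5 libraries, where 3 counts would equal 0.150 to 0.175 CPM, and 1963 to 5068 counts in each of the other 16 (99.2 to 223.1 TMM-scaled CPM). Within groups the values were 0, 99.2 and 192.2 in heart Tregs, 0, 0 and 223.1 in MLN Tregs and 0, 0 and 148.9 in heart Tconvs. It was the single gene of the 49510 at 0 in all 5 libraries and at 50 CPM or more in all 16; 1 gene, Gm11361, did the reverse. With no counting settings given in the sources used here, a missing transcript and reads that were not assigned to this gene in those libraries cannot be told apart. The SE of 2.59 on its log2 fold changes above goes with this split inside the heart Tconv group.

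Sdhc (chr1:171127165-171150603, minus strand) was also low in 4 of the 5. It had 0.0881, 65.2 and 129.2 TMM-scaled CPM in heart Tregs, 1.44, 2.94 and 109.0 in MLN Tregs and 78.9, 3.24 and 210.9 in heart Tconvs. The lymphoid libraries outside the set ran from 36.1 to 255.2. At the other end, Atp5b was at 648.6 to 1469 in the 5 and 105.3 to 774.7 in the 16, Atp5a1 at 412.2 to 876.8 and 37.1 to 417.3, and Atp5g3, another c subunit gene, at 409.1 to 979.0 and 260.1 to 474.9. Each of these 3 overlapped between the sets.

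The sizes of the transcripts moved with these differences. The tested members had a median transcript length of 849.5 bases, with 58.75% under 1 kb, against a median of 2913 bases and 7.058% for the 11505 protein-coding genes tested. In heart over NDLN Tregs the 47 short members had a median log2 fold change of -1.08 and the 33 longer ones -0.47. The 283 other protein-coding genes under 1 kb and at 100 CPM or more had -0.81, and the 1120 longer ones 0.12. In heart over NDLN Tconvs the medians were -1.07 and -0.53 for short and longer members, against -1.20 and 0.14 for the other genes. In heart over spleen Tregs they were -0.73 and -0.29, against -0.51 and 0.08. In heart over spleen Tconvs they were -1.19 and -0.79, against -1.28 and 0.05. In MLN over NDLN Tregs they were -0.80 and -0.56, against -0.80 and -0.10. In all of these comparisons the medians of short genes outside the set were below 0, as were those of the longer members. The medians of longer genes outside the set were above 0, except in MLN over NDLN Tregs. The part of transcript length in the subunit results was not tested. Over the 80 members, Spearman's rho between length and log2 fold change was 0.40 in heart over NDLN Tregs and 0.38 in heart over NDLN Tconvs, and Pearson's r with log2 length was 0.19 and 0.16, as a description of genes that share libraries. In NDLN Tregs over NDLN Tconvs the order was the other way, with 0.44 for short and 0.33 for longer members, against 0.10 and 0.12 for the other genes.

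Other genes of the pathway were described from lists chosen by function. Of the 13 subunits encoded by mitochondrial DNA, edgeR called 9 lower in heart than in NDLN Tconvs, 4 lower in heart than in spleen Tconvs and 10 in the 7-group test. Of all genes, 2.88%, 0.473% and 3.3% were called in these, in either direction. Of the 3 heart Tconv libraries, 2 belong to the 5 with little mitochondrial RNA, so lower levels there partly restate how the 5 were chosen. The one called in Tregs was mt-Nd6, the complex I subunit encoded on the other strand of mitochondrial DNA, with 105.8, 201.9 and 151.4 TMM-scaled CPM in heart Tregs, against 514.9, 586.0 and 558.5 in NDLN Tregs (log2 fold change -1.85, SE 0.38, edgeR adjusted p = 0.0263) and 458.9, 487.9 and 898.6 in spleen Tregs (-2.01, SE 0.38, edgeR adjusted p = 0.0316). Every heart Treg library was lower, those outside the 5 included, and in the 16 libraries the log2 fold changes were -1.62 (edgeR adjusted p = 0.0502) over NDLN Tregs and -1.8 (edgeR adjusted p = 0.0504) over spleen Tregs. Its levels in Tconvs were 135.0, 105.1 and 148.1 in the heart, 670.9, 580.9 and 679.9 in the NDLN and 924.4, 561.5 and 863.3 in the spleen. In the 16 libraries, where heart Tconvs keep replicate 3 alone, the log2 fold changes of the 9 over NDLN Tconvs ran from -3.4 (mt-Nd3) to -1.24 (mt-Co1). The calls over spleen Tconvs and in Tregs were not kept there, nor were all of those over NDLN Tconvs. Summed, the 13 genes took 2.03 ± 1.02% of counts in heart Tregs, 1.8 ± 0.751% in MLN Tregs, 3.91 ± 0.157% in NDLN Tregs and 3.38 ± 0.407% in spleen Tregs, and 1.47 ± 0.395% in heart Tconvs, 5.11 ± 0.501% in NDLN Tconvs and 4.93 ± 1.08% in spleen Tconvs (SD, n = 3 each).

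Of the 14 complex I assembly factors, 1 fell in heart Tconvs. Of all genes, 1.34% were called lower over NDLN Tconvs, and 0.473% were called in either direction over spleen Tconvs. These shares also apply to the assembly factors of complexes II and IV below. Ndufaf3 had 15.5, 21.8 and 15.1 TMM-scaled CPM in heart Tconvs, against 123.0, 166.5 and 137.4 in NDLN Tconvs (log2 fold change -3.03, SE 0.55, edgeR adjusted p = 0.0071) and 89.3, 133.4 and 100.9 in spleen Tconvs (-2.63, SE 0.54, edgeR adjusted p = 0.0309). The heart Tconv libraries were close to each other and far below both lymphoid groups. In the 7-group test Ndufaf3 (edgeR adjusted p = 0.0246) and Ndufaf4 (0.0199) were called, as were 3.3% of all genes. Ndufaf4 had 27.1, 30.3 and 16.9 in heart Tregs, against 99.6, 78.3 and 65.0 in NDLN Tregs. Neither gene was called in that test from the 16 libraries. The median over the 14 was -1.32 in heart over NDLN Tregs and -0.84 in heart over NDLN Tconvs.

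Among the 4 complex II assembly factors Sdhaf4 fell, with 10.8, 8.70 and 26.4 in heart Tconvs, against 54.4, 102.3 and 263.1 in NDLN Tconvs (log2 fold change -3.19, SE 0.78, edgeR adjusted p = 0.0288). Of the 17 tested complex IV assembly factors Cox14 fell, with 170.6, 241.1 and 237.5 in heart Tconvs, against 295.0, 479.4 and 648.1 in NDLN Tconvs (-1.13, SE 0.30, edgeR adjusted p = 0.046). In both genes the groups did not overlap. None of these calls held in the 16 libraries, where the log2 fold changes over NDLN Tconvs were -3.25 for Ndufaf3 (edgeR adjusted p = 0.205), -2.42 for Sdhaf4 (edgeR adjusted p = 0.495) and -1.01 for Cox14 (edgeR adjusted p = 0.540). In the lists that follow edgeR called 0 genes in any of the 9 comparisons, with genes past an unadjusted p under 0.05 in at least 1 of them and DESeq2's calls given beside. Of the 6 complex III assembly factors 2 passed unadjusted and DESeq2 called 2, and of the 3 complex V factors 0 and 0. Of the 6 electron carriers and subunits outside the name pattern 2 passed and DESeq2 called 2, of the 15 citric acid cycle genes 5 and 2, and of the 12 tested regulators 4 and 3. limma-voom called 0 in all of these lists. Of all 14996 genes, 42.5% passed unadjusted in at least 1 of the 9 comparisons by edgeR, and DESeq2 called 30% and limma-voom 11.5% in at least 1. Among the regulators, Gabpb1, the partner of the GABP factor whose letters were searched above, came nearest in the 7-group test (edgeR adjusted p = 0.0587), with 254.2, 192.9 and 123.4 in heart Tregs and 222.6, 280.8 and 109.0 in heart Tconvs, against at most 71.7 in every lymphoid library.

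Of the 15 genes of mitochondrial membranes and import, edgeR called 0 in the 9 comparisons (6 passed unadjusted; DESeq2 and limma-voom each called 2, beside the same shares of all genes). Slc25a3, which carries phosphate into mitochondria for ATP synthesis, was called in the 7-group test (edgeR adjusted p = 0.0202), as were 3.3% of all genes. In the 16 libraries it was not called in that test. It had 958.3, 1132 and 997.9 TMM-scaled CPM in heart Tregs and 857.2, 835.8 and 746.5 in heart Tconvs. The lymphoid libraries ran lower, at 515.2, 385.0 and 415.6 in MLN Tregs, 609.5, 619.7 and 446.7 in NDLN Tregs and 550.0, 558.5 and 355.0 in spleen Tregs, and 598.7, 563.8 and 478.1 in NDLN Tconvs and 609.1, 596.3 and 478.5 in spleen Tconvs. All 6 heart libraries were above all 15 lymphoid libraries. Most subunits instead had log2 fold changes below 0 in heart cells over NDLN and spleen cells of the same type. Ndufab1, the mitochondrial acyl carrier protein and a complex I subunit that the symbol rule does not take in, was at 14.6 to 50.1 in the 5 libraries with little mitochondrial RNA and 83.4 to 266.3 in the 16.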

How the data were processed

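Per the labels' protocols, CD4 T cells were enriched with magnetic beads and sorted into lysis buffer, and their RNA was amplified with a SMARTer Ultra Low Input kit. The authors deposited 1 table of raw read counts per gene for 21 libraries (7 groups of 3); the submitters' processing notes name CASAVA 1.8.2, HISAT2, HTSeq 0.6.0 and mm10. Which annotation was used, whether strand was used and how multi-mapped reads were handled is not given in the sources used here, so members with near-identical pseudogenes are uncertain. Of the gene IDs, 49326 matched GENCODE mouse release 21, from which positions and lengths were taken; 26 symbols stored as dates were restored.

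Genes with low counts were dropped (edgeR filterByExpr, minimum count 10, minimum total 15), which left 14996. All 7 groups were fitted together with edgeR 4.0.16 in R 4.3.3 (TMM factors, quasi-likelihood test, Benjamini-Hochberg adjustment over all genes, threshold 0.05), with 9 contrasts and a 7-group test; the common dispersion was 2.193. Levels are TMM-scaled CPM, and sums are shares of library totals (14515387 to 28323649 counts). The 5 libraries reported apart have under 0.5% of counts in mitochondrial ribosomal RNA. Alternatives were DESeq2 1.42.0, limma-voom (limma 3.58.1), RLE factors, no filter, the replicate number as a block, leaving out each library, and fits without the 5 libraries or with them as a term. A simulation for heart over NDLN Tconvs used log2 fold changes of 2 and 3 in either direction. Of 50 changed genes per fold size and direction, edgeR called between 1 and 16. Of 14796 unchanged genes it called 0, limma-voom 2 and DESeq2 84. Smaller changes, such as those of most called members, were not simulated. The simulated dispersions were capped below the common dispersion given above.

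Genes named are the 3 members with the highest mean in each complex (2 in complex II), isoform partners, every called member, the 2 highest and 2 lowest in each contrast at 20 CPM or more, members at 0 in a whole group, Ndufs3, and pathway genes that were called or had a small p; Cox5a, Uqcrc1, Atp5g3, Ndufab1 and Gm11361 were named after their values were seen. The members, lists and rules were chosen with earlier results of these data known. One member is counted in the totals but is not reported here by itself.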

Additional observations from a re-analysis of the deposited data

Results flagged for a closer look

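Uqcrfs1, the Rieske iron-sulfur protein of complex III, stood out because its Treg to Tconv difference had opposite signs at 2 sites. It had 329.3, 301.0 and 227.4 TMM-scaled CPM in spleen Tregs, against 439.7, 428.5 and 329.9 in spleen Tconvs, a log2 fold change of -0.48 (SE 0.29, edgeR adjusted p = 0.692). In the NDLN it had 278.8, 291.9 and 330.2 in Tregs, against 202.5, 273.5 and 184.2 in Tconvs, a log2 fold change of 0.45 (SE 0.29, edgeR adjusted p = 0.552). The TMM-scaled libraries of Tregs and Tconvs did not overlap at either site. In the spleen they were barely apart (329.3 in Treg 1 against 329.9 in Tconv 3), which rests on the TMM scaling. The share of all genes separated in this way is not given. The difference between the sites was not tested, neither value passed the threshold, and 47 quantities were screened over 5 pairs of contrasts.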

How the results depend on the processing

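The number of members called depended on the fit more than the direction did. edgeR called 2 members in heart over NDLN Tregs, 12 in heart over NDLN Tconvs, 11 in the 7-group test and 0 elsewhere. DESeq2 called 24, 37 and 36 in these (12.6%, 18.2% and 15.3% of all genes), and 4 in heart over spleen Tregs, 1 in heart Tregs over heart Tconvs, 3 in NDLN Tregs over NDLN Tconvs, 36 in heart over spleen Tconvs and 4 in MLN over NDLN Tregs. limma-voom called 8 in heart over NDLN Tregs (2.72% of all genes), 5 in heart over NDLN Tconvs (6.84%, about the members' own share), 1 in heart over spleen Tconvs (1.48%) and 27 in the 7-group test (10.9%). With no filter on low counts, edgeR called 1 in heart over NDLN Tregs (1.32% of all genes, about the members' own share) and 5 in heart over spleen Tconvs (1.33%). It called 1 in MLN over NDLN Tregs (0.728%) and 19 in the 7-group test (7.19%). RLE factors gave 0 in heart over NDLN Tregs. Without TMM factors, chosen after seeing the data, heart over NDLN Tconvs gave 3. Both the 16 libraries alone and the 5-library set as a term gave 0 in heart over NDLN Tregs, 0 in heart over NDLN Tconvs and 0 in the 7-group test. Leaving out 1 library at a time gave 0 to 2 in heart over NDLN Tregs, 0 to 12 in heart over NDLN Tconvs, 0 to 3 in heart over spleen Tconvs and 0 to 26 in the 7-group test. Shares of all genes are not given for these fits, so their counts describe only how the calls moved. Heart over NDLN Tconvs gave 0 without heart Tconv 1 or 2, 3 without NDLN Tconv 2 and 1 without NDLN Tconv 3. Heart over NDLN Tregs gave 0 without any 1 heart Treg library or without NDLN Treg 2 or 3. The 7-group test gave 0 without heart Tconv 1, 2 without heart Tconv 2, 3 without NDLN Treg 2, 5 without NDLN Treg 3, 6 without heart Treg 2 and 26 without MLN Treg 1. With the replicate number as a block, edgeR called 8 in heart over NDLN Tregs, 22 in heart over spleen Tconvs, 22 in heart over NDLN Tconvs and 26 in the 7-group test (0.974%, 1.91%, 3.39% and 3.89% of all genes). Same-numbered libraries correlated at -0.06 to 0.184 and not over 0.1 in every pair of any contrast, so the numbers were not taken to pair the libraries. Between spleen Tregs and spleen Tconvs each library correlated best with its own number (0.073, 0.091 and 0.058), so pairing was not excluded. All 12 calls of heart over NDLN Tconvs were shared by DESeq2 and by the block, and 5 by limma-voom. The summed level of the set (CPM) moved to 25447.2 in heart Tregs with mitochondrially encoded genes left out of the total (24202.6 as reported), to 33750.5 in that way and 33720.6 with TMM factors in spleen Tconvs (31046.6), to 31562.5 with TMM factors in NDLN Tconvs (26580.2) and to 18206.8 with TMM factors in heart Tconvs (20992.1). Uqcrc1 in heart over MLN Tregs ran from -0.10 without heart Treg 3 to 2.71 without MLN Treg 3 (1.19); the cause was not tested. Of the other log2 fold changes of named members, 563 kept direction and side of the threshold, 111 lost the call and 15 gained one. With a dispersion this high, differences between 3 libraries of a group and 3 of another are detected only where they are large; a call that was not made does not show that levels were equal.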
